A study of Homo sapiens with 12 samples.

Results

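The ZNF genes of chromosome 19 were taken as the protein-coding genes on that chromosome whose symbol starts with ZNF. There were 249 of them among 20036 protein-coding genes in the RefSeq gene table (assembly GRCh38.p14). A further 268 ZNF genes lie on other chromosomes, and chromosome 19 holds 1201 other protein-coding genes. The symbol alone chose the members, so whether each encodes a KRAB domain was not tested here. The samples were 12 libraries of SV-HUC-1, a human uroepithelial cell line immortalised with the SV40 virus, which makes it a non-primary model with p53 and RB function affected. Cells received 2,6-dichloro-1,4-benzoquinone (DCBQ), a by-product of water disinfection, or a blank solution (control), and exposure lasted 3 days. Reduced representation bisulfite sequencing (RRBS), which reads mainly CpG-rich DNA, and its oxidative form (oxRRBS) were each run on 3 control and 3 DCBQ samples. Levels of 5-methylcytosine (5mC) and of its oxidation product 5-hydroxymethylcytosine (5hmC) came as a fraction per CpG in 3 control and 3 DCBQ columns, and all levels below are in percent. No label says whether the samples of 1 group were grown apart, so a p-value here reflects variation among the samples only, and that variation may be technical.

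Most ZNF genes of chromosome 19 stand in tandem clusters that arose by repeated duplication, and many encode KRAB zinc finger proteins. In such a protein the array of C2H2 zinc fingers binds a DNA sequence, often within a transposable element, and the KRAB domain binds TRIM28 (KAP1). TRIM28 brings in the histone methyltransferase SETDB1 and HP1 proteins, which set up H3K9me3 heterochromatin. The genes themselves often have a CpG-rich start and a body with H3K9me3 and DNA methylation. Several of them, ZNF671, ZNF582 and ZNF331 among them, are known as genes whose CpG island gains methylation in tumours.

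The promoter sequences show what kind of DNA the methylation values below refer to. Each is the RefSeq promoter of GRCh38.p14, from 250 bases before to 50 bases after the annotated start, written 5′ to 3′ on the gene's strand with every CpG in capitals. ZNF302 (chr19:34677428-34677727, plus strand) is shown because its promoter was nearly free of 5mC while DNA at the annotated gene end 1699 bp away was highly methylated. ZNF540 (chr19:37551124-37551423, plus strand) stands for promoters near the middle of the scale, and ZNF534 (chr19:52428898-52429197, plus strand) had the highest promoter 5mC among the members.
ZNF302: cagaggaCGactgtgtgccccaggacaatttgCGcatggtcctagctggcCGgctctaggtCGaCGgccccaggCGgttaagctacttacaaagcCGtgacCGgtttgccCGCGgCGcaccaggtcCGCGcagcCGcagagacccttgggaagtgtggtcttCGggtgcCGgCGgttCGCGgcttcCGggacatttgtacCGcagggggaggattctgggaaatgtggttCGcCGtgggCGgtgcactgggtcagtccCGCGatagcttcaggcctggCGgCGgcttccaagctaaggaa
ZNF540: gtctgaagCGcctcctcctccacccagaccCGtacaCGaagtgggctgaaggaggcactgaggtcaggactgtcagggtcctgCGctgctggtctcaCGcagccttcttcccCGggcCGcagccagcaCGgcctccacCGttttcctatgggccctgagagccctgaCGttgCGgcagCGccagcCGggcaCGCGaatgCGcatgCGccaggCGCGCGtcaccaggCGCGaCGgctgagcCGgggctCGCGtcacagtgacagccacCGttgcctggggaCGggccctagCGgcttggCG
ZNF534: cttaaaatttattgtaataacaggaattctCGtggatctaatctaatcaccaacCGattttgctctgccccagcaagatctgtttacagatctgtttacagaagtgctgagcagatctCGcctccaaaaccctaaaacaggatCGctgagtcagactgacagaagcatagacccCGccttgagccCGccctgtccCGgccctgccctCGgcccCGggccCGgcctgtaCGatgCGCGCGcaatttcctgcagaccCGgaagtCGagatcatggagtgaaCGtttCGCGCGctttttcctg
The 3 sequences hold 28, 30 and 20 CpGs. Their ratios of observed to expected CpGs were 0.915, 0.825 and 0.970, so the most methylated of the 3 had the highest ratio. The ZNF302 promoter read 0.668%, 3.15% and 1.23% 5mC in the control samples and 1.10%, 1.42% and 1.18% in the DCBQ samples over 25 CpGs. The ZNF540 promoter read 57.2%, 50.5% and 50.8% in control and 60.4%, 56.9% and 58.1% in DCBQ, also over 25 CpGs. The ZNF534 promoter read 78.6%, 83.3% and 82.6% against 82.3%, 84.8% and 84.7% over 11 CpGs. The ranges of control and DCBQ overlapped at each of these 3 promoters.

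Each gene was read in 3 regions: the window around its start, the window around its other end (each reaching 1500 bp outside and 500 bp into the gene), and the body between them. A region counted as measured with at least 5 CpGs. The strand, which tells the start from the other end, was known for 218 members, and the remaining 31 entered with their bodies and with ends of unknown kind. For 5mC, 187 of 218 starts were measured, with a median of 32 CpGs, whereas 24 starts had no CpG in the table and 7 had 1 to 4. Only 47 of 218 other ends were measured, with a median of 9 CpGs, and 214 of 249 bodies, with a median of 42. In all, 246 of 249 members had at least 1 region with a 5mC value. For 5hmC the numbers were 186 starts, 43 other ends and 210 bodies. Neighbouring members can share sequence, and 7 pairs of adjacent start windows overlapped.

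Chromosome 19 ZNF genes had mostly unmethylated start windows in untreated cells, beside a smaller number of partly methylated windows. The median control 5mC level of the 187 starts was 8.36% (quartiles 1.75% and 26.0%). It was 3.27% at 195 starts of ZNF genes on other chromosomes, 12.5% at 788 starts of other chromosome 19 genes and 3.98% at all 11989 measured starts. Of the members, 130 starts were low (under 20%), 53 were intermediate and 4 were high (80% or more), or 69.5%, 28.3% and 2.14%. ZNF genes of other chromosomes had 77.9% low starts, with 39 of 195 intermediate, and other chromosome 19 genes had 12.7% high starts. These shares are a description, since genes of a cluster are not independent. The lowest member starts were those of ZNF234, ZNF428 and ZNF581, at 0.675%, 0.786% and 0.869% in control. The ZNF581 window lay 8646 bp from its RefSeq start, where the promoter read 1.85%.

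The 4 highly methylated start windows did not hold the RefSeq start, though that of ZNF101 overlapped the edge of its promoter. These windows belonged to ZNF302 (93.6%), ZNF225 (86.2%), ZNF101 (85.8%) and ZNF331 (84.8%), and their RefSeq start lay 1699, 1974, 686 and 17779 bp away from the gene end that set the window. The 300-base promoter itself read 1.68%, 2.63%, 1.67% and 1.54% in control at these 4 genes. Among the 163 measured starts whose RefSeq start was the gene end, none was high, 121 were low and 42 were intermediate. The highest of these was ZNF534, at 79.3%. ZNF584 showed the same at an intermediate level: its window read 48.0%, and its promoter, 7091 bp away, read 0.956% over 35 CpGs. Of the 53 intermediate windows, 32 had a promoter with at least 5 measured CpGs. That promoter was under 20% at 18 of them, between 20% and 80% at 13 and higher at 1.

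Within the 300-base promoter the members were far more uniform. Of 140 promoters with at least 5 measured CpGs, 124 were low (88.6%, against 89.0% of 8984 promoters of all genes), with a median of 1.58% in control. There were 15 intermediate promoters and 1 high one. Apart from ZNF534, the most methylated were those of ZNF541 (73.1% ± 3.6, SD, n = 3, over 41 CpGs), ZNF486 (69.9% ± 3.5 over 6 CpGs), ZNF575 (65.5% ± 4.4 over 6 CpGs), ZNF556 (59.6% ± 3.6 over 5 CpGs) and ZNF177 (57.8% ± 1.0 over 7 CpGs). The ZNF135 promoter read 29.4% ± 2.7 over 25 CpGs. In DCBQ, ZNF541 read 73.0%, ZNF486 70.3% and ZNF135 29.6%, each within 1 SD of control. ZNF575 read 94.4%, 96.7% and 51.1% in the 3 DCBQ samples, a spread that took in all of its control values (70.4%, 62.0% and 64.0%).

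**Figure D1:**
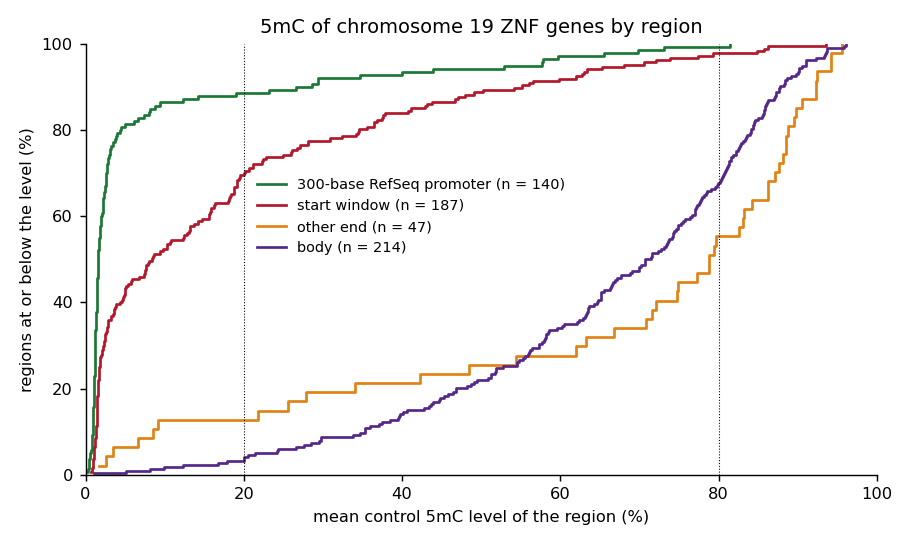
Cumulative share of chromosome 19 ZNF genes (y axis, percent of regions) at or below a mean control 5mC level (x axis, percent) for the 300-base promoter, the start window, the other end and the body. Dotted lines mark 20% and 80%. The promoter curve reaches 88.6% at the first line, the start curve 69.5% and the body curve 3.27%.

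Intermediate starts were mostly mixtures of unmethylated and methylated CpGs. Across the 53 intermediate windows, 43.4% of CpGs were under 20%, 30.9% lay between and 25.7% were at 80% or more, and 38 of the 53 windows held CpGs of both extremes. A smaller number, 19, had at least 50% of their CpGs at middle levels. ZNF540 was of that kind, with 27 of 31 CpGs between 20% and 80%. ZNF415 was too, with 31 of 38. The sequence of the RefSeq promoter told little about the level of the start window. Across 187 starts the Spearman correlation of the window's control 5mC with the promoter's CpG observed to expected ratio was -0.11. With the promoter's GC content it was -0.15. The window is wider than the promoter, and the RefSeq start was the gene end at only 163 of these starts. Sequence and 5mC were therefore not of the same DNA, and how promoter CpG content relates to promoter 5mC was not tested.

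The mean level differed with the distance from the start, though each bin averages only the members measured there, and their number differs between bins. Control 5mC averaged 8.28% over the members in the first 250 bp of the gene, 11.0% in the 250 bp before it and 27.5% in the next bin out. It was 48.9% between 750 and 500 bp before the start and 71.2% between 1000 and 750 bp. Further out, between 1500 and 1250 bp, it was 79.4% ± 0.73 (SD over 3 control samples), from 28 genes only. The unmethylated stretch was about as deep in ZNF genes of other chromosomes (7.69% in the first 250 bp) and shallower in other chromosome 19 genes (18.7%). DCBQ left the bottom of this profile at 8.32%, against 8.28% in control.

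**Figure D2:**
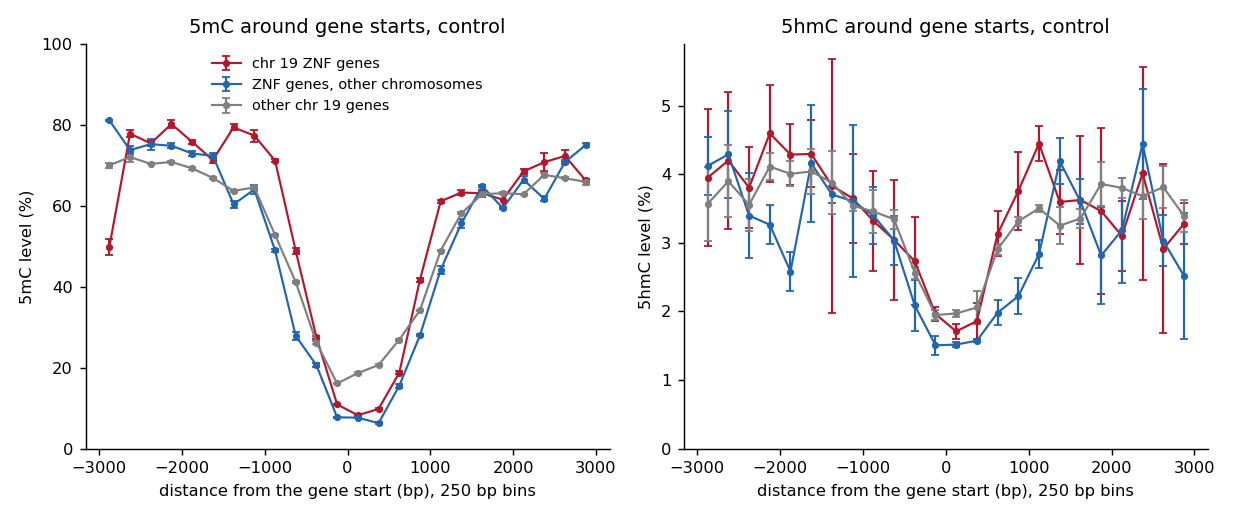
Mean control 5mC (left) and 5hmC (right), in percent, by distance from the gene start in 250 bp bins, for chromosome 19 ZNF genes, ZNF genes of other chromosomes and other chromosome 19 genes. Bars are the SD over 3 control samples, and the members' 5mC and 5hmC are lowest in the first 250 bp of the gene.

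Several members with known roles had low start windows. ZNF91 and ZNF93, repressors of SVA and L1 retrotransposons, had low starts (16.3% ± 1.7 and 2.73% ± 0.75 in control, SD, n = 3) and methylated bodies (77.9% and 71.6%). ZNF274, which brings SETDB1 to the 3′ ends of zinc finger genes, had a start at 4.85% and a body at 77.5%. ZNF568, whose mouse counterpart represses a placental Igf2 transcript, had a start at 1.05%, in a window that overlaps ZNF829. ZNF304 and ZNF382 starts were at 5.76% and 4.69%. The body of ZNF350, a partner of BRCA1, read 73.4%, and its start was not measured. The annotated span of ZNF580 lies within that of ZNF581, and the ZNF580 start read 3.23%.

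Of the members known for promoter methylation in tumours, ZNF671 and ZNF132 had partly methylated start windows in untreated SV-HUC-1 cells. ZNF671 (start window chr19:57727124-57729124) read 48.2%, 49.8% and 49.3% in the control samples and 52.1%, 47.2% and 48.9% in the DCBQ samples over 34 CpGs. ZNF132 read 52.6%, 54.3% and 55.5% against 59.7%, 55.1% and 59.0% over 30 CpGs, in a window shared with ZNF324B. Control and DCBQ overlapped at both genes. ZNF582 and ZNF667 were low, at 8.55% ± 1.03 and 15.8% ± 0.30 in control. ZNF582 read 6.04%, 7.32% and 7.35% in DCBQ, below its 3 control values of 7.68%, 8.28% and 9.69% (adjusted p = 0.742, limma). The ZNF331 promoter was unmethylated, as given above, and the start of ZNF677 had fewer than 5 CpGs.

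Promoters of 3 clusters shared a short sequence that the other members lacked. A search of all words of 9 letters, on either strand, for the largest difference in share between member promoters and all others returned TCCAATCAG, which reads CTGATTGGA on the opposite strand and contains the CCAAT box, a common promoter element. It was found in 52 of 218 member promoters (23.9%), 7.34% of ZNF promoters on other chromosomes, 0.518% of other chromosome 19 promoters and 0.991% of all 15842 promoters of that length. Since the word was chosen for this difference, the shares are a description with no test. The 52 promoters all lay in 3 clusters: 29 of 29 in the cluster from ZNF101 to ZNF254, 19 of 24 in that from ZNF653 to ZNF791 and 4 of 5 in that from ZNF554 to ZNF77. None of the 160 promoters of the other clusters held it. There were 72 occurrences, 71 of them reading TCCAATCAG on the gene's strand, at a median of 55 bp before the start. The 1 exception was that of ZNF490, printed below. Its promoter overlaps that of ZNF791 (chr19:12610670-12610969, plus strand), so this site counts at both genes. The plain CCAAT box, on either strand, was in 54.1% of member promoters and 36.4% of all. The 3 promoters with the word that had the most measured CpGs are ZNF490 (chr19:12610764-12611063, minus strand), ZNF136 (chr19:12162846-12163145, plus strand) and ZNF433 (chr19:12035630-12035929, minus strand), printed here with the word in capitals to show its place.
ZNF490: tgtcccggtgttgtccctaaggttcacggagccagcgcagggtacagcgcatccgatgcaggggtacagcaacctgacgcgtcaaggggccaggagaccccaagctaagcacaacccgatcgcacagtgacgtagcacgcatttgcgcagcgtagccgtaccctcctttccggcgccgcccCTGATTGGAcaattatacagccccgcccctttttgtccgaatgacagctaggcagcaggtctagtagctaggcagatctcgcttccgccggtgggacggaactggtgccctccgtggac
ZNF136: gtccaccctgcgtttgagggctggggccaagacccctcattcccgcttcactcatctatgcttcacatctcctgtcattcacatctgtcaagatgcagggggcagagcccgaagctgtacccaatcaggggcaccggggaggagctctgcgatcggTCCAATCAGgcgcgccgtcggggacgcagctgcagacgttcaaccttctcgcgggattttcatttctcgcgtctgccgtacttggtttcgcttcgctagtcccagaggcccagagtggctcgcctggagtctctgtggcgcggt
ZNF433: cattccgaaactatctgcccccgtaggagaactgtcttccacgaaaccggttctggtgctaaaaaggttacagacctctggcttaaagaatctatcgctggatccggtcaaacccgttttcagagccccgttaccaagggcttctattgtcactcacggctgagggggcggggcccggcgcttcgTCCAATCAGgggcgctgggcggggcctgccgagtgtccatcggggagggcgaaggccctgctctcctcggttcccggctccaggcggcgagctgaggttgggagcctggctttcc
Control 5mC at these promoters was 0.804%, 0.574% and 1.54% over 24, 19 and 19 CpGs. Promoters with the word had a median of 2.32% (29 measured, 5 of them at 20% or more) and those without it 1.54% (111 measured, 11 at 20% or more). In the wider start window the medians were 14.2% (51 starts) and 7.09% (136 starts). All promoters with the word lay in 3 clusters, so word and cluster cannot be told apart in these medians. A match describes the letters only and is not evidence that a factor binds there.

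Clusters, taken as runs of members less than 1 Mb apart, did not sort the starts into methylated and unmethylated groups. There were 16 such runs, and the 6 largest, with 24 to 59 genes, held 212 members. Between 24.4% and 41.4% of the starts in each of these 6 were at 20% or more. The cluster from ZNF101 to ZNF254 had the highest share, with 12 of 29 starts, and the highest median, 15.7%. The cluster from ZNF628 to ZNF446, at the end of the long arm, had the lowest share, with 11 of 45 and a median of 7.52%. The lowest median, 2.51%, was that of the cluster from ZNF575 to ZNF296, where 5 of 15 starts were at 20% or more. Adjacent genes did not share their level: over 140 neighbouring pairs without overlapping windows, the Spearman correlation of control 5mC was -0.03. Both starts were under 20% in 66 pairs, both at or above it in 11, and the members of the pair differed in 63.

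**Figure D3:**
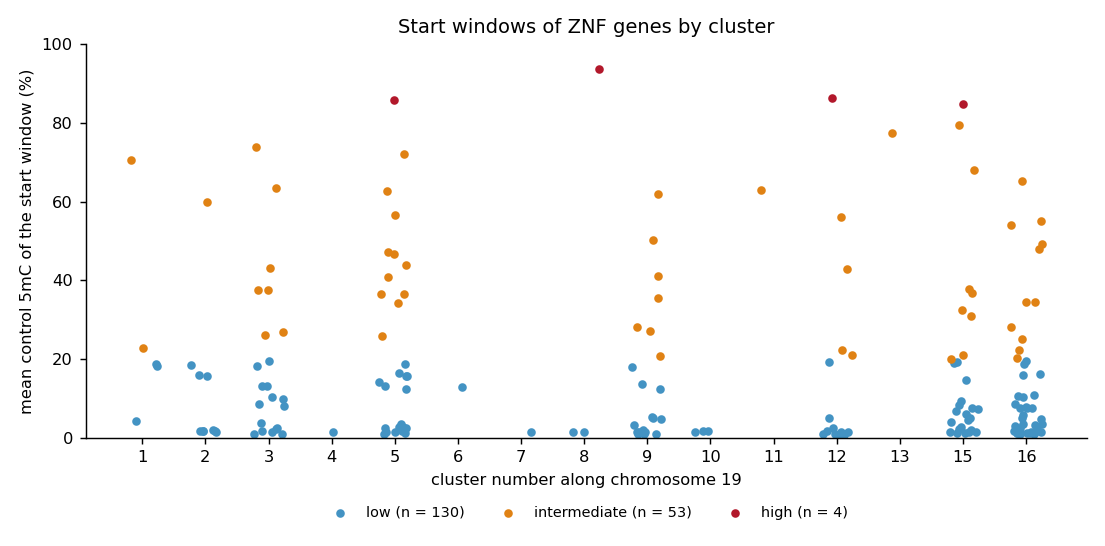
Mean control 5mC of the start window (y axis, percent) for 187 chromosome 19 ZNF genes, grouped by cluster in order along the chromosome (x axis) and coloured by level class. Low and intermediate starts stand side by side in each of the 6 largest clusters.

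Bodies of the same genes were methylated. The median control level was 71.1% over 214 bodies, against 75.8% in ZNF genes of other chromosomes, 74.97% in other chromosome 19 genes and 70.3% in all 16492 measured bodies. Only 7 member bodies were low. The first 10% of the body length averaged 47.3% over 131 genes. The later stretches of that size lay between 72.3% and 76.8%, over 70 to 88 genes each. In 141 of the 157 genes with both values, the body was more methylated than the start, by a median of 56.7 points. The 16 exceptions included ZNF302 (start window 93.6%, body 5.06%), ZNF880 (68.0% and 29.7%) and ZNF460 (10.7% and 1.06%). The ZNF302 and ZNF880 windows lay 1699 and 3065 bp from the RefSeq start. Their promoters, at 1.68% and 3.47% in control, fell in the span read as body. Other exceptions, such as ZNF101, ZNF225 and ZNF331, also had a window away from the RefSeq start. The other ends, read at 47 genes, had a median of 78.8%. These few ends had CpGs dense enough for RRBS and may not stand for the 171 ends that were not measured.

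After DCBQ, 5mC was slightly lower over the members, by about the amount seen over all genes. No member region passed the test at an adjusted p of 0.05 (limma with Benjamini-Hochberg adjustment over all regions). The percentage of all gene ends called was 0, and of gene bodies also 0, of 20362 and 16492 tested. Without adjustment, 1343 ends and 1429 bodies had p under 0.05. Of the members, 10 of 187 starts did so, where the share over all starts was 6.36%. The counts were 2 of 47 other ends (7.17% over all genes) and 16 of 214 bodies (8.66% over all genes). Of the 29 measured ends of members without a known strand, 2 did so (6.71% over all such ends). The members' shares were therefore at or near those of the genome.

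The mean over 187 member starts was 18.3%, 18.2% and 18.3% in the control samples and 18.02%, 18.1% and 17.9% in the DCBQ samples. The mean over 214 bodies was 65.8%, 65.6% and 65.5% in control and 65.3%, 65.2% and 65.2% in DCBQ. Over 47 other ends it was 66.5%, 65.9% and 65.6% against 65.3%, 65.4% and 65.3%. In each of these regions the 3 DCBQ samples were below the 3 control samples, by 0.260, 0.414 and 0.668 points. The same regions of all genes also did not overlap between groups, with differences of -0.161, -0.427 and -0.527 points. By gene, 114 of 187 starts (61.0%), 32 of 47 other ends (68.1%) and 152 of 214 bodies (71.0%) were lower in DCBQ, against 59.2%, 62.7% and 69.8% over all genes. Most differences were small: 150 of 187 starts and 137 of 214 bodies moved by less than 1 point, and 4 of each moved by more than 5.

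**Figure D4:**
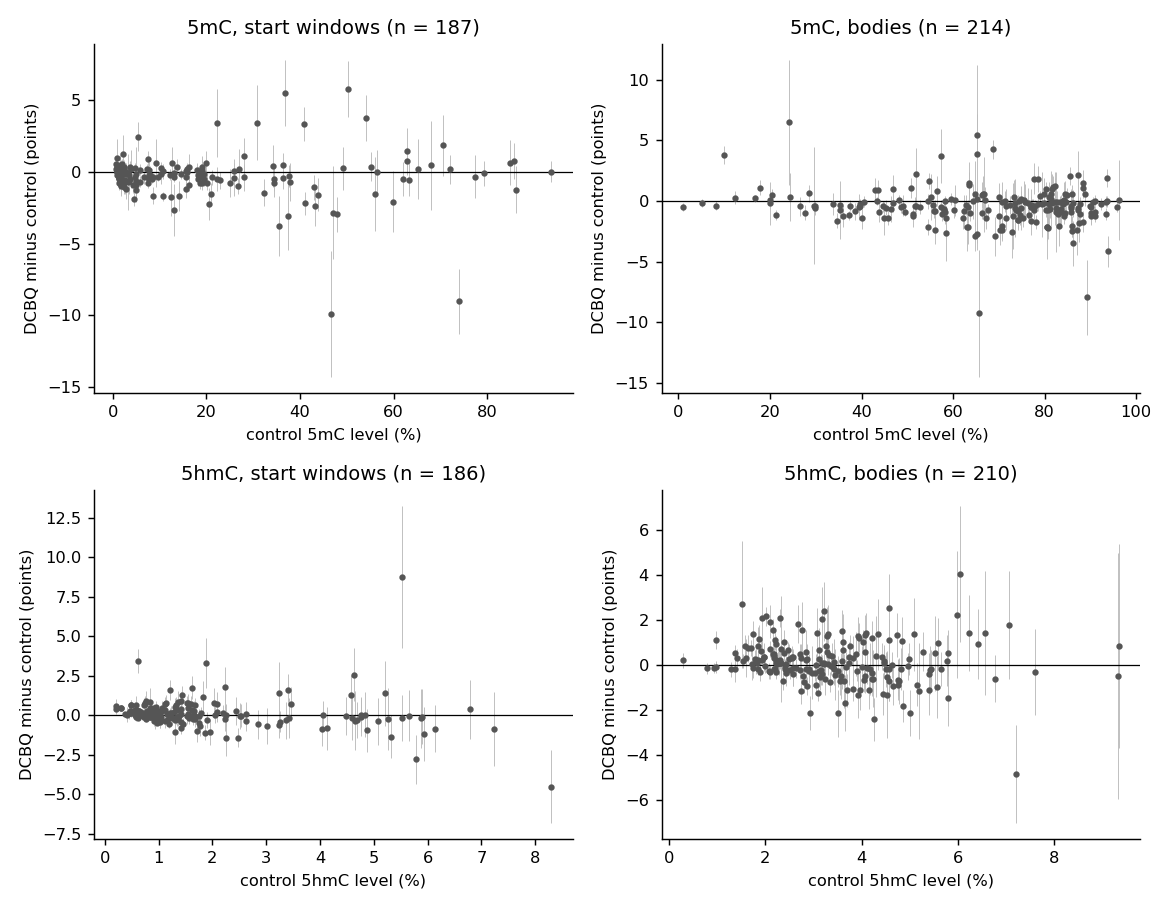
Difference between DCBQ and control (y axis, percentage points, with limma's SE as bars) against the control level (x axis, percent) for 5mC (top) and 5hmC (bottom) at start windows (left) and bodies (right) of chromosome 19 ZNF genes. Each point is a gene, and most lie within 1 point of 0.

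The start with the smallest p was that of ZNF460 (chr19:57278482-57280482, 26 CpGs). It read 11.0%, 10.6% and 10.5% in control and 8.71%, 9.22% and 9.15% in DCBQ, with no overlap between the groups. The difference was -1.69 points (SE 0.31) and its adjusted p 0.462 (limma). ZNF442 (chr19:12373279-12375279, 5 CpGs, RefSeq start 8096 bp away) read 69.4%, 76.0% and 76.4% against 62.9%, 64.2% and 67.5% (adjusted p = 0.644, limma). ZNF616 (chr19:52139438-52141438) read 5.38%, 4.57% and 3.85% against 3.53%, 2.29% and 2.29% (adjusted p = 0.653, limma). The groups did not overlap at either gene, though the margin was under 2 points at both.

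In the other direction, the ZNF540 start window (chr19:37549874-37551874, 31 CpGs), which holds the promoter printed above and touches the gene LOC124904708, read 54.3%, 48.1% and 48.1% in control and 57.1%, 55.2% and 55.5% in DCBQ. The difference was 5.78 points (SE 1.95, adjusted p = 0.698, limma), and control 1 lay closer to the DCBQ samples than to the other controls. ZNF730 (chr19:23073711-23075711) read 41.1%, 40.8% and 40.5% against 42.4%, 46.0% and 44.0% (adjusted p = 0.720, limma), with no overlap, in a window 41814 bp from its RefSeq start. ZNF850 read 4.82%, 6.83% and 4.55% against 8.16%, 6.04% and 9.42%, and here the groups overlapped. The largest difference among starts was at a window with few CpGs, that of ZNF723, with 6 and a RefSeq start 20073 bp away. It was lower by 9.92 points (adjusted p = 0.765, limma), and its DCBQ samples ran from 28.6% to 46.8%.

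Among bodies, ZNF345 had the smallest p. Its 36 CpGs (chr19:36850866-36892717) read 68.7%, 70.05% and 67.7% in control and 73.3%, 73.6% and 72.2% in DCBQ. The values were 4.27 points apart (SE 0.77, adjusted p = 0.418, limma), in a span that overlaps ZNF829. ZNF112 (chr19:44327054-44366716) read 10.3%, 10.05% and 9.59% against 14.99%, 14.05% and 12.2% over 20 CpGs (adjusted p = 0.443, limma). The groups stood apart at both genes, and both were higher in DCBQ, against the direction of most bodies. ZNF878 (chr19:12044103-12052460) was lower, at 85.9%, 85.8% and 86.1% against 83.7%, 83.9% and 82.8% over 51 CpGs (adjusted p = 0.468, limma). ZNF536, a gene expressed in the nervous system, gave the value with the most CpGs, 716: its body read 37.1% ± 0.24 in control and 36.0% ± 0.38 in DCBQ (SD, n = 3, adjusted p = 0.555, limma).

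Among the 29 ends without a known strand, 17 were lower and 12 higher in 5mC. The 2 with an unadjusted p under 0.05 were in the cluster from ZNF101 to ZNF254 and were named after their values were seen. The ZNF728 end (chr19:23002676-23004676, 38 CpGs) read 49.6%, 47.8% and 48.1% in control and 44.00%, 43.2% and 41.6% in DCBQ. Its difference was -5.59 points (SE 1.12, adjusted p = 0.514, limma), and its p was the second smallest of any member end, after ZNF460. The ZNF98 end (18 CpGs) read 14.6% ± 1.11 against 11.9% ± 1.56 (SD, n = 3, adjusted p = 0.698, limma). The groups did not overlap at either end.

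**Figure D5:**
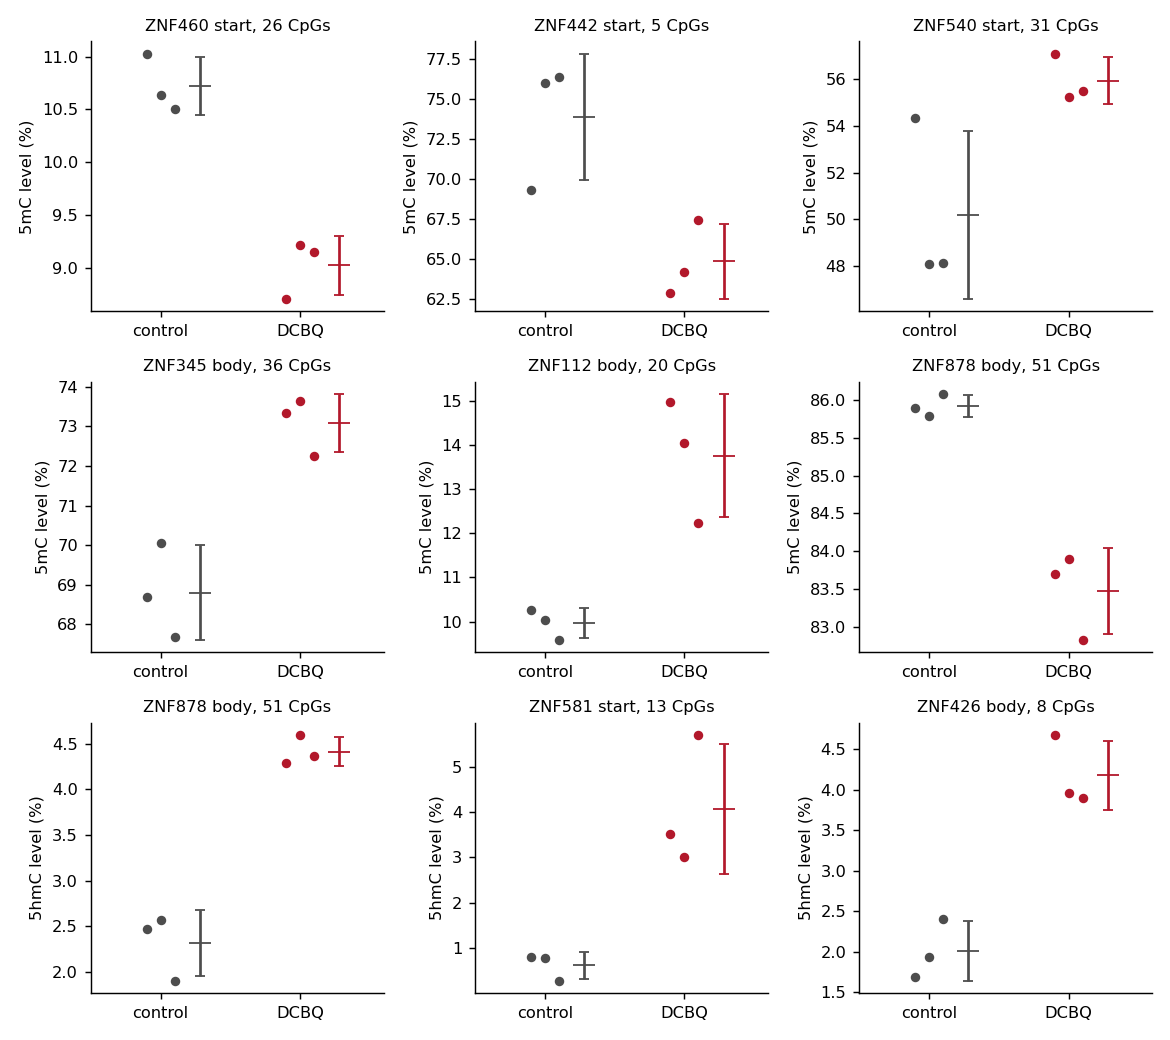
Levels in each sample (points; y axes, percent, which do not start at 0) with the mean and SD of 3 samples beside them, for 9 regions of chromosome 19 ZNF genes among those with the smallest p for 5mC or 5hmC. Control and DCBQ samples do not overlap in any of the 9 panels, which follows in part from choosing regions by their p. None of these regions passed the test after adjustment.

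At the other ends, ZNF765 (7 CpGs, shared with the readthrough ZNF765-ZNF761) was lower, from 77.3% ± 0.50 to 73.7% ± 0.82, and ZNF433 (7 CpGs) was higher, from 82.6% ± 1.49 to 85.2% ± 0.32 (SD, n = 3; adjusted p = 0.653 and 0.748, limma). The control and DCBQ samples did not overlap at these ends. ZNF837, the end with the most CpGs among the 3 with the highest control level, had 70 and read 94.2% ± 0.16 against 93.3% ± 0.29.

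5hmC was a minor mark at these genes. The median control level was 1.32% at 186 starts, 3.39% at 43 other ends and 3.22% over 210 bodies, against 1.12%, 2.98% and 3.19% over all genes. The table holds no 5hmC value below 0 beyond rounding, so error at unmodified CpGs can only raise a mean. Starts with more 5mC had more 5hmC: the Spearman correlation was 0.75 over 186 starts, and the median 5hmC was 1.01% at starts with low 5mC, 3.14% at intermediate ones and 3.74% at the 4 high ones. Over bodies the correlation was -0.03. The columns of the marks carry the same sample names, so these values may share library error. The order of genes was less repeatable than for 5mC, with Spearman correlations between samples of 0.56 to 0.74 for 5hmC at starts and 0.95 to 0.97 for 5mC.

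No member passed the test for 5hmC either, and the percentage called over all gene ends (20100 tested) and all bodies (16356 tested) was 0 in both (limma, adjusted p). Unadjusted p under 0.05 was found at 1021 ends and 872 bodies of all genes. It was found at 7 of 186 member starts (4.46% over all genes), 1 of 43 other ends (7.22% over all genes) and 12 of 210 bodies (5.33% over all genes). It was also found at 3 of 29 ends without a known strand (4.77% over all such ends), those of ZNF99, ZNF571 and ZNF155. The 7 starts include ZNF568 and ZNF829, whose overlapping windows hold the same 18 CpGs with the same values. The mean over member starts was 1.88%, 1.90% and 1.93% in control and 1.88%, 2.04% and 2.20% in DCBQ. Over bodies it was 3.47%, 3.26% and 3.51% against 3.49%, 3.40% and 3.82%. The groups overlapped in both regions, and DCBQ 3 was the highest sample in each.

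The smallest p for a start was at ZNF581 (chr19:55633503-55635503, 13 CpGs), in the window that lay 8646 bp from its RefSeq start. Its 5hmC read 0.796%, 0.770% and 0.275% in control and 3.51%, 3.00% and 5.70% in DCBQ, with no overlap (difference 3.46 points, SE 0.75, adjusted p = 0.964, limma). 5mC in the same window was 0.869% ± 0.59 and 1.04% ± 0.64 (SD, n = 3). At the RefSeq promoter of ZNF581, the 5hmC difference over 12 CpGs was -0.348 points, with 0.852% ± 0.61 in DCBQ (SD, n = 3). Among bodies, ZNF426 (chr19:9523724-9538144, 8 CpGs) read 1.68%, 1.94% and 2.40% against 4.68%, 3.97% and 3.90%, and ZNF296 (47 CpGs) read 1.76%, 2.80% and 1.90% against 3.21%, 4.29% and 3.69%. The groups did not overlap at either body (adjusted p = 0.770 and 0.928, limma). ZNF480 (21 CpGs) was lower, from 3.10% ± 0.48 to 1.87% ± 0.14 (adjusted p = 0.928, limma). ZNF415 had the highest 5hmC of any member start, but its control samples ran from 3.29% to 12.3%, a range that took in 2 of its 3 DCBQ values (4.70%, 2.903% and 3.76%).

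The marks tended to differ in opposite directions. At 118 of 186 starts (63.4%) and 135 of 210 bodies (64.3%), the difference between DCBQ and control had opposite signs for 5mC and 5hmC. The Spearman correlation of the paired differences was -0.35 and -0.44. Over all genes, 5mC was lower in DCBQ at 59.2% of starts and 69.8% of bodies, and 5hmC higher at 53.7% and 56.2%. Opposite signs were not counted over all genes, so whether their share is particular to the members was not tested. How the authors derived the marks from RRBS and oxRRBS reads is not stated in the sources. Whether an error shared by the marks has a part in this relation was not tested. Of the bodies, ZNF878 had the smallest p for 5hmC and the smallest among lower ones for 5mC: 5hmC over its 51 body CpGs read 2.47%, 2.57% and 1.90% in control and 4.29%, 4.59% and 4.36% in DCBQ (difference 2.10 points, SE 0.39, adjusted p = 0.770, limma), beside the 5mC difference of -2.45 points. Neither mark overlapped between groups there. At the ZNF728 end, beside the 5mC difference given above, 5hmC read 2.44%, 6.09% and 5.89% in control and 8.73%, 7.30% and 8.06% in DCBQ (difference 3.22 points, SE 1.72, adjusted p = 0.964, limma), again with no overlap. At the ZNF415 start, 5mC was 5.53 points higher and 5hmC 4.51 points lower in DCBQ, with overlap in 5mC and in 5hmC.

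The partners of KRAB zinc finger proteins did not pass the test either. The list held TRIM28, SETDB1 and HP1 genes, the HUSH and NuRD complexes and DNA methyltransferases, 39 of 40 of which were in the gene table. For 5mC, 20 of 29 measured starts were lower and 9 higher, where 59.2% of starts were lower over all genes. Of 37 bodies, 30 were lower and 7 higher, where 69.8% were lower over all genes. None was called, and 3 of 29 starts (6.36% over all genes) and 2 of 37 bodies (8.66% over all genes) had an unadjusted p under 0.05 (limma). For 5hmC these counts were 3 of 29 starts (4.46% over all genes) and 1 of 37 bodies (5.33% over all genes), the starts of CHD4, SMARCAD1 and HDAC2 and the body of MORC2. The start of TRIM28 was not measured, and its body read 17.5% ± 0.90 in control and 16.3% ± 0.37 in DCBQ. The body of DNMT1, the maintenance methyltransferase, read 83.2%, 83.0% and 83.9% against 80.4%, 81.1% and 82.1%, with no overlap (adjusted p = 0.547, limma). The other body was that of DNMT3B, a de novo methyltransferase, at 66.5% in control and 65.2% in DCBQ (adjusted p = 0.575, limma). The 3 starts, all lower in DCBQ, were those of RBBP7, a histone-binding NuRD subunit (1.96% ± 0.094 and 1.28% ± 0.28), TASOR, a HUSH subunit (15.4% ± 0.38 and 14.2% ± 0.44), and MTA1, another NuRD subunit (13.7% ± 1.66 and 11.5% ± 0.32), with SD over 3 samples. Their adjusted p-values were 0.668, 0.698 and 0.742 (limma).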

How the data were processed

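The deposited 5mC and 5hmC tables give a fraction per CpG for 3 control and 3 DCBQ columns, with a minimum of 5 reads and merged strands per the file names. The submitters' processing notes name hg38, BSMAP 2.90, Trim Galore and cutadapt. How RRBS and oxRRBS libraries were combined is not stated in these sources, and neither is depth, so no counting interval is given.

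The tables held 3689712 and 3534314 CpGs, 228656 and 220370 of them on chromosome 19. Gene spans came from RefSeq (GRCh38.p14), and strand and promoters from its promoter table. Regions with at least 5 CpGs were averaged per sample and tested with limma 3.58.1 in R 4.3.3 (moderated, with a mean-variance trend), with Benjamini-Hochberg adjustment over all ends or all bodies of a mark, after a test on simulated data. For each mark and region, the text names the 3 members with the smallest p in each direction and the 3 with the highest control level, or a choice of them. For 5mC starts it also takes the 3 lowest and the 3 nearest 50%, and it adds a list of genes with known roles. Other genes and the promoter word were chosen after their values were seen. The members and lists were chosen with earlier results of these data known. Domain and finger counts, planned from protein sequences, were not analysed here. One symbol of the family on this chromosome is not reported here.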

Additional observations from a re-analysis of the deposited data

How the results depend on the processing

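No region was called under any alternative in any of the 4 fits; the smallest adjusted p of a member over all of them was 0.306 for 5mC ends, 0.367 for 5mC bodies, 0.665 for 5hmC ends and 0.654 for 5hmC bodies. With the replicate number as a replicate block the calls were also 0. Same-numbered samples did not deviate together (correlations between -0.0442 and 0.0122). This cannot show that the samples are unpaired, since a shared effect smaller than the noise of single regions would not appear. No label says whether the numbers pair the samples. The regions named for the smallest p kept their direction under each alternative run. Weighting each CpG equally changed the mean 5mC difference at starts from -0.260 to -0.164 points. With windows of 500 bp outside, 27 starts were intermediate and 2 high, and at other ends 14 members were lower in 5mC and 4 in 5hmC, 3 were low, 2 were intermediate, and the 5hmC difference was 0.586 points in place of 0.192. With at least 10 CpGs, other ends gave 17 members lower in 5mC, 8 lower in 5hmC, 12 intermediate and 7 high; with at least 3 CpGs, 32 were high. Fewer or more ends enter under these settings. Counts of members at an unadjusted p under 0.05 moved more: 5mC bodies from 16 to 9 and 5hmC bodies from 12 to 6 when read from 2000 bp inside, 5hmC starts from 7 to 3 without the trend, 4 with windows touching no other gene and 11 without control 3, and other ends between 0 and 4 for each mark. At ends without a known strand, 5mC gave 2, and 4 without DCBQ 2 or 1 without DCBQ 3 or control 3; 5hmC gave 3, and 0 without control 1, 1 without DCBQ 3 or control 3 and 5 without the trend. The depth behind each fraction is unknown, other ends rest on few CpGs, and 3 samples a group from 1 cell line limit the precision.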
